A study of Mus musculus with 6 samples.

Results

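The integrin subunits described here are the products of 10 mouse genes, Itga3, Itga4, Itga5, Itga6, Itga7, Itga9, Itgav, Itgb1, Itgb3 and Itgb5, chosen by name because their heterodimers bind laminin, fibronectin or vitronectin. Every non-control probe whose RefSeq accession belongs to 1 of these genes was taken, which gave 14 probes of 39429 on the array and 10 genes of the 20659 that could be named. RNA of C2C12 cells, an established line of mouse myoblasts, was hybridised to 6 single-colour Agilent expression arrays. In 3 of them the cells had received an siRNA against Meg3, a long non-coding RNA (siRNA-MEG3, genotype given as knockdown), and in the other 3 a negative control siRNA (siRNA-NC, genotype given as control). Cells of both groups were grown in medium with 10% serum and transfected with lipid at 70 to 80% confluence, with the siRNA amount given as "20 um". No source used here gives the time at which RNA was taken.

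Each integrin is a pair of 1 alpha and 1 beta chain that spans the plasma membrane, binds the extracellular matrix on the outside and couples to the actin cytoskeleton through talin and kindlin on the inside. Myoblasts adhere to fibronectin largely through Itga5 paired with Itgb1, and skeletal muscle fibres are anchored to laminin in their basement membrane by Itga7 paired with Itgb1. Itgb1 is the common partner of most of the alpha chains here, while Itgb3 and Itgb5 pair with Itgav.

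Of the 10 genes, 7 had a promoter in the RefSeq table of the GRCm38.p6 assembly, which lists 250 bases before to 50 after each start of transcription. The 3 windows shown belong to Itga4, the only member with a probe past an adjusted p of 0.05, and to Itga5 and its partner Itgb1. The probes of Itga5 and Itgb1, like that of Itga3, were higher on siRNA-NC array 2 than on siRNA-NC arrays 1 and 3. Capitals mark the E-box letters CANNTG, the motif of MyoD-type muscle factors, searched without regard to strand since its reverse complement has the same form.
Itga4 promoter, chr2:79255176-79255475, plus strand: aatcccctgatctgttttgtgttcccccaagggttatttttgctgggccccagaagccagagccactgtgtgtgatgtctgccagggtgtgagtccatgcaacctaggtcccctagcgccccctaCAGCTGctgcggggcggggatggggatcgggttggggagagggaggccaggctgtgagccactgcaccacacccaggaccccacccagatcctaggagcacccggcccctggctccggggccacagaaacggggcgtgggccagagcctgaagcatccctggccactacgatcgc
Itga5 promoter, chr15:103366742-103367041, minus strand: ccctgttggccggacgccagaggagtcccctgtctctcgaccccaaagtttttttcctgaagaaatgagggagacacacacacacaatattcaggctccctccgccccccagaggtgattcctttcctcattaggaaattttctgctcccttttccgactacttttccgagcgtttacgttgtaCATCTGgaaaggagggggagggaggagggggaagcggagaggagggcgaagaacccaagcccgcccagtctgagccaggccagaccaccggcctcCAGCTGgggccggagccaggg
Itgb1 promoter, chr8:128685404-128685703, plus strand: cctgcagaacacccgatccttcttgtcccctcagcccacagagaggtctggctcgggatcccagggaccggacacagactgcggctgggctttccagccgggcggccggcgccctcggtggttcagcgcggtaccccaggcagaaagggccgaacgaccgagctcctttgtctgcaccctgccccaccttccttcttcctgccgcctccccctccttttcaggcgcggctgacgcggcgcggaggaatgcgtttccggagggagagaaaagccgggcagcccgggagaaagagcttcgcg
The Itga4 window held 1 E-box, of the CAGCTG form, beginning at position -125 from the start site. That of Itga5 held 2, CATCTG beginning at position -66 and CAGCTG beginning at position 30, and that of Itgb1 held 0. Of the windows not shown, those of Itga9 and Itgb5 each held 1 CAGCTG, and those of Itga3 and Itgav held 0. Across 32851 promoters of the same length, 72.3% held CANNTG on either strand and 16.3% held CAGCTG. The 3 windows were GC-rich, at 64.3% for Itga4, 58.7% for Itga5 and 67.3% for Itgb1, against a median of 52.7% over all promoters. A match describes these letters only and is no evidence of binding.

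Myoblast identity was checked on 6 myoblast markers, of which 5 were well above background on all 6 arrays, while Pax7, a satellite cell factor, was so on 1 of 3 siRNA-MEG3 and all 3 siRNA-NC arrays. Epithelial markers summed to 0.0205 to 0.0350 on the siRNA-MEG3 arrays and 0.0189 to 0.0303 on the siRNA-NC arrays, in multiples of each array's 75th percentile, with 3 of 4 markers above background on no array. Spots well above background made up 62.8 to 69.3% of siRNA-MEG3 arrays and 70.1 to 75.2% of siRNA-NC arrays, and no spot was saturated. Among 255 probes printed 10 times, the deviations of single spots from their probe mean were nearly identical on siRNA-MEG3 arrays 1 and 3 (r = 0.98, against -0.28 to 0.56 for the other 14 pairs), a pattern of 1 array scanned again. For siRNA-NC arrays 1 and 3 the probe-level differences had an SD of 0.03 on the log2 scale and a variance of 1.28 times that given by spot noise, whereas for siRNA-NC arrays 1 and 2 the SD was 0.54 and the variance 118 times the spot noise. The sample titles call all arrays biological replicates. Because of the values above, each of the pairs 1 and 3 was still averaged and counted as 1 sample, leaving 2 samples per group. The 2 siRNA-MEG3 samples, at 1.07 times the spot noise, may be technical replicates too. Whether the labelled replicates were separate cultures could not be told. The p-values therefore measure only the spread between these samples. The arrays came from 3 scans, and no scan held both groups, so scan and group cannot be told apart. The knockdown itself could not be checked, because the 3 Meg3 probes were well above background on 0 siRNA-MEG3 arrays and, for 1 probe, on 1 siRNA-NC array.

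Of the 14 integrin probes, 12 passed the filter on dim probes and entered the fit, for 9 genes. A probe of Itga4 was higher with siRNA-MEG3 and was the 1 probe of 12 past an adjusted p of 0.05 (limma, Benjamini-Hochberg over 26345 probes), and 0 passed as lower. Over all probes tested, 1.36% passed, 0.994% as higher and 0.361% as lower. The Itga4 probe entered the fit only through the siRNA-MEG3 arrays, since it was not well above background with siRNA-NC, so its call is not counted as support for a change of the family. The other 11 integrin probes did not pass. At an unadjusted p of 0.05, 4 of 12 integrin probes passed, against 19.1% of all probes. The arrays of the 2 groups did not overlap for 7 of the 12, 3 higher and 4 lower with siRNA-MEG3, against 47.2% of all probes, 28.8% higher and 18.4% lower. Both counts include the Itga4 probe. The 4 lower include Itgb3 probe A_66_P126293, which entered the fit only through the siRNA-NC arrays, where it was higher. Such probes were kept for their signal in 1 group, so neither count is read as a change of the family. Log2 fold changes were positive for 6 integrin probes and negative for 6, with a median of 0.04, against 0.05 over all probes. Throughout, a fold change is a difference of log2 intensities after each array was set against its own 75th percentile, whereas the intensities quoted per array are the deposited ones, unscaled; the 75th percentile was 2444 on siRNA-NC array 2 and 1340 to 1470 on the other 5 arrays.

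**Figure D1:**
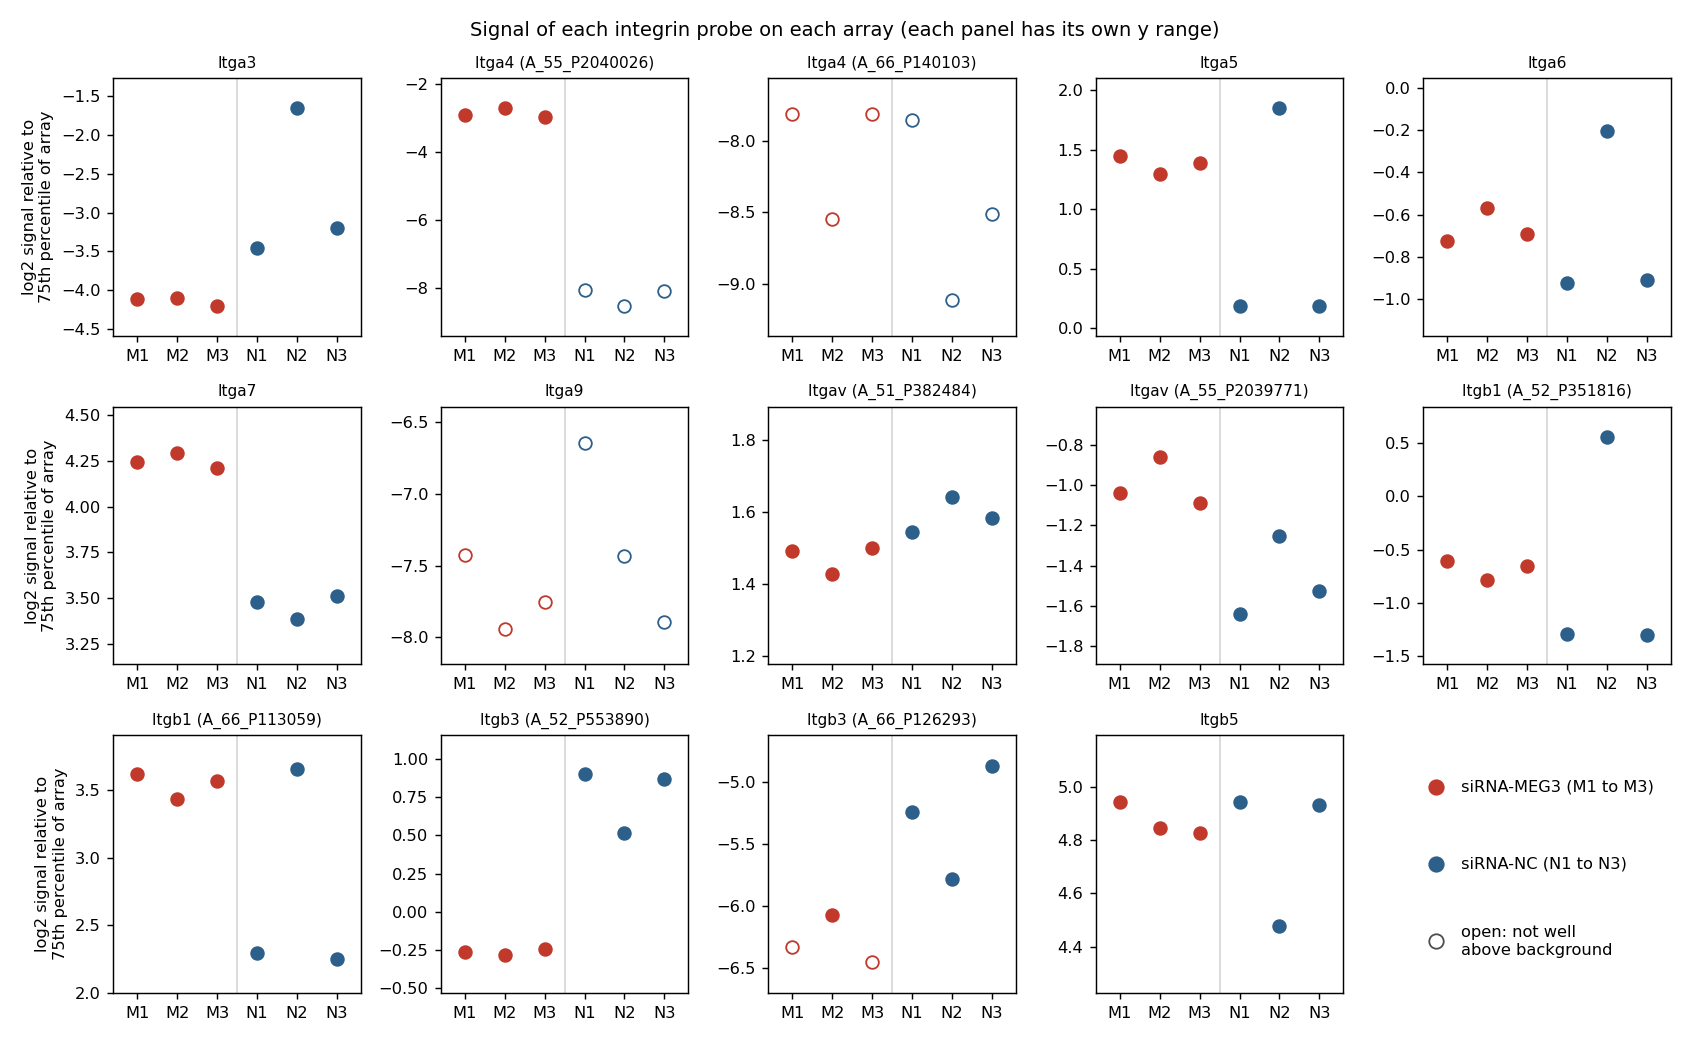
Log2 intensity relative to each array's 75th percentile (vertical axis) for the integrin probes on each of the 6 arrays, siRNA-MEG3 left of siRNA-NC, 1 point per array and an open point where the probe was not well above background. The Itga4 probe separates the groups most, at a mean of -2.81 on siRNA-MEG3 and -8.30 on siRNA-NC, while several other probes have siRNA-NC array 2 apart from arrays 1 and 3.

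Among the fibronectin-binding chains, Itga4, whose pairs with Itgb1 or Itgb7 also bind VCAM1 on neighbouring cells, had intensities of 161, 196 and 150 on siRNA-MEG3 arrays 1 to 3, against 4.82, 6.13 and 4.47 on siRNA-NC arrays 1 to 3. The probe was well above background on all 3 siRNA-MEG3 arrays and on none of the siRNA-NC arrays. On the latter it lay below the dimmest spot counted as measured (14.5 to 17.7 across the siRNA-NC arrays). The siRNA-NC level is therefore only a bound, and after scaling the siRNA-MEG3 mean of this probe was 14.7-fold above that bound. This ratio sets the mean of the siRNA-MEG3 samples against the lowest signal well above background on the siRNA-NC arrays. It carries no sampling error and holds for this background correction only. The fitted log2 difference was 5.49 ± 0.27 (SE, n = 2 samples per group, limma adjusted p = 0.0187), and depends on siRNA-NC values below that limit. It was 5.26 against siRNA-NC 1 and 3 and 5.72 against siRNA-NC 2, so both siRNA-NC samples gave the same direction. The call was lost without siRNA-NC array 2 (limma adjusted p = 0.124) and with no filter on dim probes (limma adjusted p = 0.0529), and in both settings 0 of all probes passed. With normexp background correction at an offset of 50 and with speck spots (local background over 5 times the array median) left out, the difference was 2.04 (limma adjusted p = 0.0407).

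A second Itga4 probe, A_66_P140103, was not well above background on any array. Its intensities were 5.33, 3.40 and 5.20 on the siRNA-MEG3 arrays and 5.54, 4.09 and 3.34 on the siRNA-NC arrays, and the groups overlapped. The 2 Itga4 probes thus disagreed, and which part of the transcript each one reads is not given in the files. The rise of Itga4 rests on 1 probe, A_55_P2040026.

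Markers of myotubes, the fused and differentiated cells that C2C12 can form, moved with Itga4. All 8 had a positive difference, 5 passed as higher, and the median was 3.63 on the log2 scale. They summed to 38.0 to 40.2 on the siRNA-MEG3 arrays, against 7.52 to 8.92 on the siRNA-NC arrays, in multiples of the 75th percentile, and 7 of 8 were well above background on all arrays. Myog, the factor that drives differentiation, rose by 3.46 ± 0.22 and Myh3, embryonic myosin, by 7.05 ± 0.54 (log2, SE), both named after their values were seen. The Myh3 spots on siRNA-MEG3 arrays 1 and 3 lay in dark blocks, the regions of dim spots described below for Itga7. Of the 6 myoblast markers 0 passed, with 3 positive and 3 negative. Myod1, Cdh15 and Ncam1 had log2 differences of 2.29 ± 0.43, 1.41 ± 0.24 and 0.29 ± 0.27 (SE). Myf5, Pax7 and Des had -2.87 ± 0.41, -0.29 ± 0.94 and -0.22 ± 0.59 (SE). Pax7 had 18.5, 134 and 20.1 units on siRNA-MEG3 arrays 1 to 3, so its difference is poorly measured. The 6 summed to 20.9 to 23.1 on the siRNA-MEG3 arrays, against 14.3 to 19.2 on the siRNA-NC arrays. Ncam1 was the brightest of them, so the sum says little about the others. Endothelial markers, whose cells also carry several of these integrins, summed to 0.942 to 1.32 on the siRNA-MEG3 arrays and 0.893 to 0.951 on the siRNA-NC arrays. Kdr was the brightest of them, with a log2 difference of 0.15 ± 0.21 (SE), and Cdh5 and Tek were not tested. Pecam1 had 552, 109 and 533 units on siRNA-MEG3 arrays 1 to 3, with the array 2 spot in a dark block, and a difference of 0.34 ± 0.86 (SE). Fibroblast markers, of which Dcn was the brightest, summed to 35.6 to 37.5 with siRNA-MEG3 and 35.0 to 38.5 with siRNA-NC. Adipocyte markers summed to 1.48 to 1.54 with siRNA-MEG3 and 0.946 to 1.39 with siRNA-NC. Pparg was the brightest of them, so this sum too says little about the others. Pparg and Fabp4 had log2 differences of 0.37 and 0.67, Adipoq and Plin1 of -1.08 and -1.14, and 0 passed. Adipoq was well above background on 0 siRNA-MEG3 arrays and Plin1 on 1. The part of these marker groups in the Itga4 difference was not tested. In RNA of whole cultures, a change in the number of cells of a type and a change in RNA per cell cannot be told apart.

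Itga5, the classical fibronectin receptor chain, was well above background on all arrays. It had 3264, 3124 and 3057 units on the siRNA-MEG3 arrays, against 1457, 8173 and 1390 on the siRNA-NC arrays, so all 3 siRNA-MEG3 arrays lay between siRNA-NC array 2 and the other siRNA-NC arrays. Relative to the 75th percentile it was 1.17 log2 units above siRNA-NC 1 and 3 and 0.49 below siRNA-NC 2 (difference -0.49). The fitted difference was 0.34 ± 0.60 (SE, limma adjusted p = 0.822), with a 95% interval of -1.29 to 1.97, which holds changes in either direction of more than 2-fold. Itga9, the chain that binds tenascin and VCAM1 with Itgb1, had 6.97, 5.18 and 5.41 units on the siRNA-MEG3 arrays and 12.8, 13.1 and 5.13 on the siRNA-NC arrays. It was well above background on none of them and was not tested.

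Among the laminin-binding chains, Itga7, the main laminin receptor chain of skeletal muscle, was well above background on all arrays. Its intensities were 22680, 24946 and 21669 on the siRNA-MEG3 arrays, against 14316, 23721 and 13909 on the siRNA-NC arrays. Its log2 levels relative to the 75th percentile were 4.24, 4.30 and 4.21 on the siRNA-MEG3 arrays, against 3.48, 3.39 and 3.51 on the siRNA-NC arrays. After scaling, every siRNA-MEG3 array lay above every siRNA-NC array. The difference of 0.82 ± 0.21 (SE), a 1.76-fold higher mean, had a 95% interval of 0.26 to 1.38 and did not pass (limma adjusted p = 0.165). It was 0.77 against siRNA-NC 1 and 3 and 0.87 against siRNA-NC 2, so the siRNA-NC samples lay close together on Itga7. Its spot on siRNA-MEG3 array 2 lay in a dark block, meaning a region of 30 by 17 spots where more than 5% of spots were over 4-fold dimmer than with siRNA-NC, and without that spot the difference was 0.78.

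Itga3, the chain for laminins of epithelial and other basement membranes, had 69.4, 73.9 and 63.3 units on the siRNA-MEG3 arrays, against 117, 721 and 133 on the siRNA-NC arrays. Every siRNA-MEG3 array was below every siRNA-NC array, but siRNA-NC 2 stood 1.67 log2 units above siRNA-NC 1 and 3. The difference was -0.81 against siRNA-NC 1 and 3 and -2.48 against siRNA-NC 2, for a fitted -1.64 ± 0.61 (SE, limma adjusted p = 0.260). Itga6, a laminin chain of proliferating myoblasts and many epithelia, had 725, 858 and 724 units on the siRNA-MEG3 arrays and 676, 1965 and 651 on the siRNA-NC arrays. Its fitted difference was -0.08 ± 0.32 (SE, limma adjusted p = 0.931), with a 95% interval of -0.94 to 0.79.

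**Figure D2:**
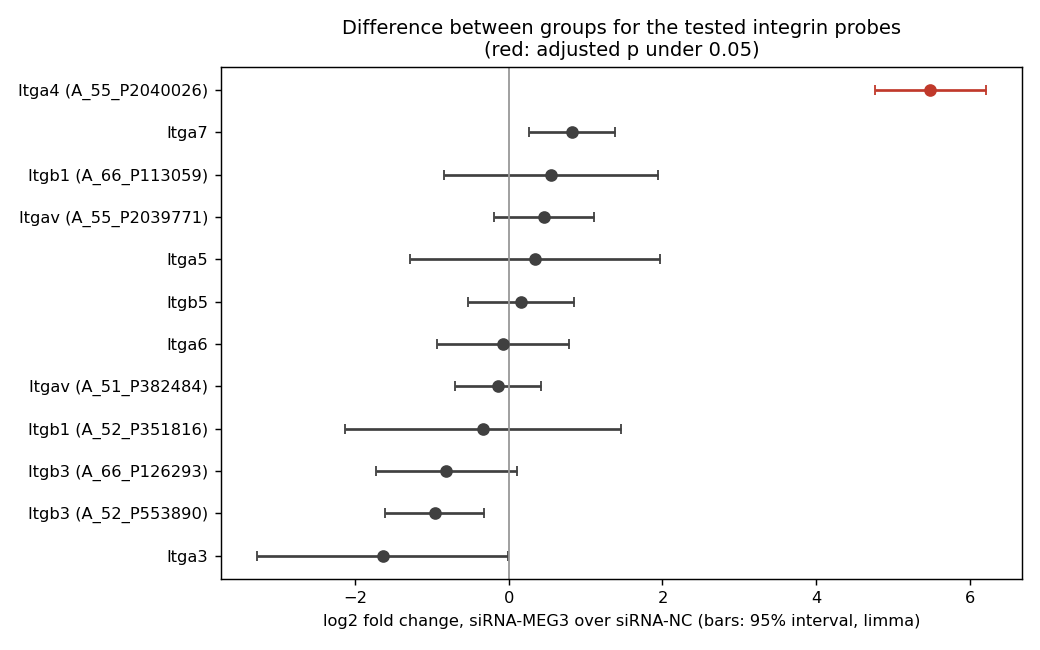
Log2 difference, siRNA-MEG3 minus siRNA-NC, with its 95% interval (horizontal axis) for the 12 tested integrin probes. The interval of Itga4 runs from 4.77 to 6.21, those of Itga3, Itga7 and the Itgb3 probe A_52_P553890 also lie on 1 side of 0, and the other 8 span it.

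Itgav, the alpha chain of the vitronectin receptors, was read by 2 probes. Probe A_51_P382484 had 3368, 3416 and 3301 units on the siRNA-MEG3 arrays, against 3746, 7069 and 3654 on the siRNA-NC arrays, with a difference of -0.14 ± 0.21 (SE, limma adjusted p = 0.774). Probe A_55_P2039771 had 583, 700 and 549 units on the siRNA-MEG3 arrays, against 411, 951 and 424 on the siRNA-NC arrays, with a difference of 0.46 ± 0.24 (SE, limma adjusted p = 0.402). After scaling the arrays of the 2 groups did not overlap on either probe, but the directions were opposite and neither passed, so Itgav gave no call. The spots of A_51_P382484 on siRNA-MEG3 arrays 1 and 3, and of A_55_P2039771 on all 3 siRNA-MEG3 arrays, lay in dark blocks as well. Without the spots in such blocks the first probe gave -0.20 and the second had no value.

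Among the beta chains, Itgb1 was also read by 2 probes. Probe A_66_P113059 had 14681, 13755 and 13806 units on the siRNA-MEG3 arrays, against 6302, 28514 and 5802 on the siRNA-NC arrays, and probe A_52_P351816 had 788, 737 and 744 against 525, 3342 and 496. On both, the siRNA-MEG3 arrays lay close together, above siRNA-NC arrays 1 and 3 and below siRNA-NC array 2. The fitted differences had opposite signs, 0.55 ± 0.51 (SE, limma adjusted p = 0.639) for A_66_P113059 and -0.34 ± 0.67 (SE, limma adjusted p = 0.840) for A_52_P351816. Both probes had spots in dark blocks on siRNA-MEG3 arrays 1 and 3, and leaving those out gave 0.45 and -0.44.

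Itgb3, the beta chain of the vitronectin receptor that platelets and osteoclasts also use, was read by 2 probes, neither of which passed. Probe A_52_P553890 had 1000.2, 1047 and 987 units on the siRNA-MEG3 arrays, against 2399, 3236 and 2223 on the siRNA-NC arrays, with every siRNA-MEG3 array below every siRNA-NC array. The difference was -0.97 ± 0.24 (SE, limma adjusted p = 0.161), 1.95-fold lower, with a 95% interval of -1.61 to -0.32. Probe A_66_P126293 had 14.9, 18.9 and 13.3 units on the siRNA-MEG3 arrays, of which 1 was well above background, against 34.0, 41.1 and 41.8 on the siRNA-NC arrays. Its difference was -0.82 ± 0.34 (SE, limma adjusted p = 0.303), and the arrays did not overlap, but with 2 of 3 siRNA-MEG3 arrays at background the size is uncertain and the direction turned to 0.17 with normexp and speck spots left out. Of 4 leukocyte and platelet markers, 2 were well above background on all arrays. In multiples of the 75th percentile, the 4 summed to 0.491 to 0.950 on the siRNA-MEG3 arrays and 1.06 to 1.70 on the siRNA-NC arrays. Itgam, itself an integrin subunit, was the brightest of them, so the sum says little about the others. The log2 difference was -1.11 for Itgam and 0.18 for Pf4. Gp9 and Ptprc had -0.73 and -0.29, but for each only 1 siRNA-MEG3 array cleared background. Of the 4 markers 0 passed. The part of these markers in the Itgb3 values was not tested.

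Itgb5, the other beta chain of Itgav, had 36914, 36585 and 33162 units on the siRNA-MEG3 arrays and 39461, 50412 and 37232 on the siRNA-NC arrays. Its difference was 0.16 ± 0.26 (SE, limma adjusted p = 0.799) with a 95% interval of -0.53 to 0.85, which holds no change of 2-fold or more in either direction. The scaled levels overlapped between groups.

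**Figure D3:**
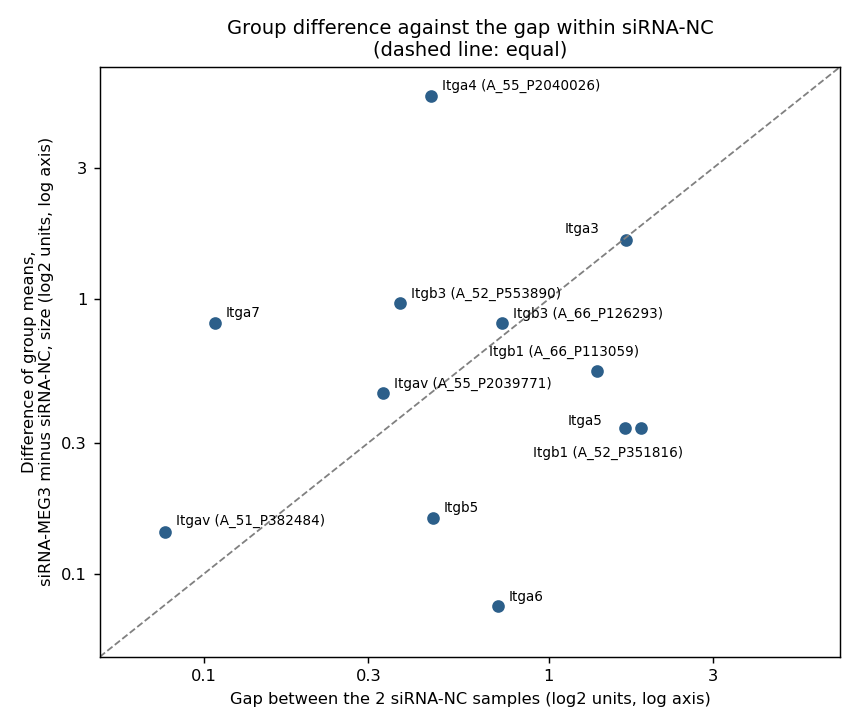
Size of the siRNA-MEG3 minus siRNA-NC difference (vertical axis, log2 units on a log axis) against the size of the gap between the 2 siRNA-NC samples (horizontal axis, log2 units on a log axis), 1 point for each of the 12 tested integrin probes, with the dashed line where both are equal. Itga3, Itga5 and both Itgb1 probes have gaps of 1.38 to 1.86, more than the size of their group differences.

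Among the tested integrin probes, the 2 siRNA-NC samples differed most on Itgb1, Itga3 and Itga5. siRNA-NC 2 was higher than siRNA-NC 1 and 3 by 1.86 and 1.38 log2 units on the Itgb1 probes, by 1.67 on Itga3 and by 1.66 on Itga5. It was also higher by 0.71 on Itga6 and by 0.08 and 0.33 on the Itgav probes. It was lower on the Itgb3 probes A_52_P553890 and A_66_P126293, on Itgb5 and on Itga7, with differences of -0.37, -0.73, -0.46 and -0.11. For 6 of the 12 probes the siRNA-NC samples lay further apart than the 2 group means did, against 50.4% of all probes. The median absolute gap between the siRNA-NC samples was 0.59 over the integrin probes, against 0.40 over all probes, while that between the siRNA-MEG3 samples was 0.13, against 0.14 over all probes. The siRNA-MEG3 samples sat between them for Itga5, Itga6, Itgb5 and both Itgb1 probes.

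The other genes of the pathway were described from fixed lists, by the brightest tested probe of each gene. Over all genes tested by that probe, 1.41% passed, 1.03% as higher and 0.381% as lower, and the median log2 difference was 0.06. Of 9 other integrin subunits tested, from 14 on the array, 0 passed, 5 were positive and 4 negative, with a median of 0.07. The one with the smallest p, Itga1, a collagen-binding chain, had 21.2, 25.8 and 24.9 units on the siRNA-MEG3 arrays, 1 of them well above background, against 41.9, 97.7 and 42.8 on the siRNA-NC arrays. The fitted difference was -0.95 ± 0.24 (SE, limma adjusted p = 0.162), measured partly against background, and -0.24 with normexp and speck spots left out.

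Of 22 matrix ligands, 19 were tested and 0 passed, with 14 positive, 5 negative and a median of 0.23. Lamb3, the laminin beta chain of epithelial anchoring sites, had the smallest p among them, with 565, 595 and 527 units on the siRNA-MEG3 arrays, against 240.2, 237.9 and 247.3 on the siRNA-NC arrays. The groups did not overlap, with a difference of 1.70 ± 0.37 (SE, limma adjusted p = 0.135). The Lamb3 spot on siRNA-MEG3 array 1 lay in a dark block, and with such spots left out the difference was 1.67. The 11 laminin chains were all tested, with 8 positive, 3 negative and a median of 0.31, and 0 passed. For the partners of Itga4, chosen after their values were seen, Vcam1 had a difference of 0.31 ± 0.22 (SE, limma adjusted p = 0.519) and the fibronectin gene Fn1 one of -0.13 ± 0.31 (SE, limma adjusted p = 0.867).

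Of 28 cytoplasmic adaptors and kinases, 23 were tested, 1 passed as higher and 0 as lower, with 15 positive, 8 negative and a median of 0.20. The 1 that passed was Itgb1bp2, which encodes melusin, a striated muscle protein that binds the cytoplasmic tail of Itgb1. It had 206, 187 and 189 units on the siRNA-MEG3 arrays, against 24.6, 33.7 and 22.5 on the siRNA-NC arrays, and was well above background on all 6. The groups did not overlap, with a log2 difference of 3.23 ± 0.24 (SE, limma adjusted p = 0.0254), 9.37-fold. It was 1.97 with normexp and speck spots left out (limma adjusted p = 0.0423), and the call was lost with no filter on dim probes (limma adjusted p = 0.0688) and without siRNA-NC array 2 (limma adjusted p = 0.124). Ilk and Vcl, the kinase-like adaptor and the actin linker of adhesion sites, were named after their values were seen, and had differences of 0.84 ± 0.31 (SE, limma adjusted p = 0.259) and 0.81 ± 0.24 (SE, limma adjusted p = 0.199). The Vcl spots on siRNA-MEG3 arrays 1 and 3 lay in dark blocks. Of 11 membrane partners, 10 were tested and 0 passed, with 3 positive, 7 negative and a median of -0.15. Slc3a2, the CD98 heavy chain that binds integrin beta tails, had the smallest p, with a difference of 0.69 ± 0.24 (SE, limma adjusted p = 0.237).

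**Figure D4:**
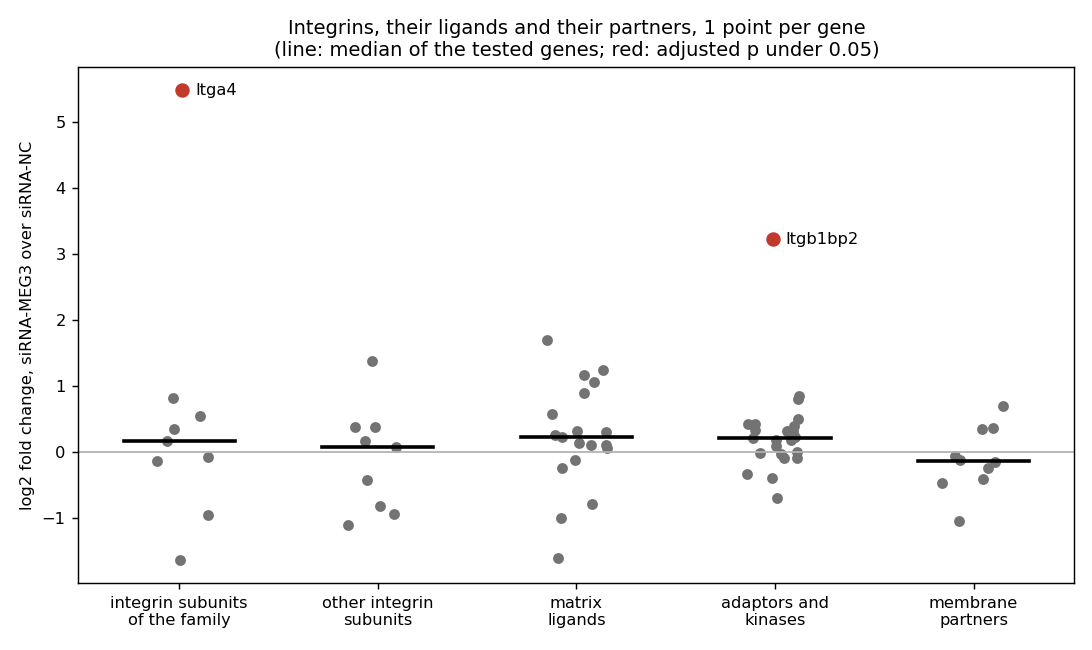
Log2 difference, siRNA-MEG3 minus siRNA-NC (vertical axis), of each tested gene in the integrin family, its ligands, adaptors and membrane partners, 1 point per gene by its brightest probe, with a line at each group's median. Itga4 and Itgb1bp2 are the 2 genes past the threshold, at 5.49 and 3.23, and most others lie close to 0.

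The genes whose values ran closest to Itga4 over the 6 arrays, among 19329 probes compared, were Tecrl, Tspan33 and Lrrn1, with root mean square differences of 0.142, 0.146 and 0.189 after each was centred on its siRNA-NC mean. That mean is below background for Itga4, so these distances rest in part on unmeasured levels. The closest to Itga7 were Mmp10, Qpct and Zw10, with root mean square differences of 0.018, 0.037 and 0.038. These are descriptions over 6 arrays that hold 4 samples.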

How the data were processed

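Agilent Feature Extraction 11.0.1.1 wrote the deposited spot files, per the file headers, with a background-subtracted processed signal intensity per spot. A deposited table gives the authors' log2 values of 30732 probes, each column with a median of 8.11; their between-array step stays unknown, and they served as an alternative. Repeated probes were averaged by the authors and a factor was taken from probes of intensity 30 or more, per the labels.

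Here control and outlier spots were left out, and log2 processed signals were set against each array's 75th percentile. Probes had to be well above background throughout 1 group or both and usable in all samples, and were matched to genes by RefSeq accession (27234 named, 12195 not). limma 3.58.1 in R 4.3.3 compared groups (lmFit, eBayes, 2-sided, Benjamini-Hochberg over all kept probes, threshold 0.05), with 2 samples per group, 2 residual and 2.31 prior degrees of freedom. The script was tested on simulated data. Alternatives took the 6 arrays as 6 samples or the siRNA-MEG3 arrays as 1, and others covered background correction, scaling, filters, dark blocks, replicate block and left-out replicates; scan as a random block was added after the data were seen.

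Other list genes were named where past the threshold, up to 6 a list, or else by the smallest p; the 3 most similar genes were named for Itga7 and for the most changed probe. The members and lists were chosen with earlier results of these data known.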

Additional observations from a re-analysis of the deposited data

How the results depend on the processing

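Over 21 alternative settings, 329 values were computed for 16 named probes, of which 293 kept direction and side of the threshold, 23 passed where they had not, 4 lost the call and 9 reversed. Itga4 stayed positive in every setting that gave it a value, from 2.04 to 5.50. It lost the call with no filter on dim probes (limma adjusted p = 0.0529) and without siRNA-NC replicate 2 (0.124), and Itgb1bp2 in the same 2 settings (0.0688 and 0.124). The number of integrin probes past the threshold, 1 in the report, was 4 with the 6 arrays as 6 samples, 2 with the siRNA-MEG3 arrays as 1 sample, 0 with no filter, 0 when probes had to be well above background on all 6 arrays, which leaves Itga4 out by construction, and 7 with scan as a random block. The number over all probes, 357 in the report (262 higher, 95 lower), was 6936 with the 6 arrays as 6 samples, 1303 with the siRNA-MEG3 arrays as 1 sample, 0 with no filter and 15711 with scan as a random block; the cause was not tested. The 6-sample and scan settings count repeat scans as samples. With median scaling the split was 233 higher and 148 lower, and the median of all probes moved to -0.14; with normexp, a setting that also leaves out the spots under a bright speck, that median was 0.17. All values given for normexp carry both changes. Leaving out 1 replicate at a time gave 0 to 2 integrin probes and 0 to 3143 probes in all. With the replicate number as a block, 1 integrin probe and 261 probes passed over 4 samples, and 3 integrin probes and 3623 probes passed over 6 samples. Same-numbered arrays did not deviate together (r from -0.04 to -0.03), and each siRNA-MEG3 array deviated most like a siRNA-NC array of another number. These deviations were centred within each group and every r lay from -0.05 to 0.05, so they cannot decide whether same-numbered arrays share a batch. With 6 samples Itga7 and Itgb3 (A_52_P553890) passed (limma adjusted p = 0.0046 and 0.0056), and without siRNA-MEG3 replicate 2 Itga3 passed at -1.67 (0.0214), while without siRNA-NC replicate 2 it was -0.81. Itga6 reversed to 0.018 with 6 samples and with their replicate block, to 0.024 with scan as a random block and to 0.28 without siRNA-NC replicate 2 (-0.15 to 0.28 over all left-out replicates). Itgb1 probe A_52_P351816 reversed to 0.59 without siRNA-NC replicate 2 (-0.35 to 0.59), and Itgb3 probe A_66_P126293 to 0.17 with normexp. Itgb5 reversed to -0.015 with normexp, -0.026 with median scaling and -0.070 without siRNA-NC replicate 2 (-0.070 to 0.19). Without siRNA-NC replicate 2 the lone siRNA-NC sample is assumed to vary like the siRNA-MEG3 samples, and without siRNA-MEG3 replicate 2, or with the siRNA-MEG3 arrays as 1 sample, the lone siRNA-MEG3 sample is assumed to vary like the siRNA-NC samples. The precision is limited by 2 samples per group. Signal over background limits Itga9, the second Itga4 probe, the siRNA-NC level of Itga4 and the siRNA-MEG3 levels of Itgb3 probe A_66_P126293 and Itga1.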
